A study of Homo sapiens with 20 samples.

Results

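The comparison described here set MII cells that had received siRNAs against APC and TAZ (siAPC/siTAZ) against MII cells that had received siRNAs against beta-catenin and TAZ (sibcat/siTAZ). All genes on the array were its members, and its samples were chosen by their titles: 8 of the 20 arrays of the series, 4 biological replicates (A to D) in each group. MII is the MCF10-T1k line, human mammary epithelial cells transformed by RAS. The arrays were Affymetrix HG-U133 Plus 2.0, and a level is given as the log2 RMA signal of a gene's probe set, on which a difference of 1 is a 2-fold difference. The other 12 arrays held siAPC alone, sibcat alone and the control siRNA against GFP (siGFP), again with 4 arrays each. The 8 arrays therefore shared the cell line, the lipofection and the TAZ siRNA and differed in which of APC and beta-catenin was targeted. The series holds no group with TAZ siRNA alone among the samples analysed here, the siRNA sequences and the time to harvest stand in no source used here, and protein was not measured, so beta-catenin is described by its mRNA and by its target genes.

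Beta-catenin, the product of CTNNB1, is both a part of adherens junctions and the coactivator of the TCF/LEF transcription factors. In resting cells a complex of the scaffolds APC and AXIN with the kinases CK1 and GSK3 phosphorylates it, and the ligase adaptor beta-TrCP then has it degraded, so loss of APC is known to raise beta-catenin protein and the transcription of its targets without a Wnt ligand. TAZ, the product of WWTR1, is a coactivator of TEAD factors that is held in the cytoplasm by the Hippo kinases and has also been described as a passenger and an effector of the beta-catenin destruction complex. The series title names TAZ as a mediator of Wnt signalling, and the comparison asks what separates cells with high and low beta-catenin activity when TAZ is depleted in both.

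The targeted genes went with their labels. CTNNB1 stood at 12.31, 12.33, 12.14 and 12.26 in siAPC/siTAZ cells, against 9.12, 9.27, 9.19 and 9.20 in sibcat/siTAZ cells and a mean of 11.94 in siGFP cells. APC stood at 6.85, 6.94, 6.78 and 6.99 in siAPC/siTAZ cells, against 8.36, 8.49, 8.36 and 8.41 in sibcat/siTAZ cells and a mean of 8.22 in siGFP cells. WWTR1 lay far below its siGFP mean of 11.05 in both groups, at 7.91, 7.98, 8.02 and 8.0 in siAPC/siTAZ cells and at 8.33, 8.42, 8.40 and 8.49 in sibcat/siTAZ cells. No pair of groups overlapped for these genes: CTNNB1 was 8.37-fold higher and APC 2.86-fold lower in siAPC/siTAZ cells, and WWTR1 was lower there too, by a log2 difference of -0.43 ± 0.05 (SE). The other probe sets of CTNNB1 were higher by 2.84 and 0.67, the last of them above siGFP also in sibcat/siTAZ cells, by 0.36. Of the 5 APC probe sets 3 were called lower and 2 were not called. The 2 other probe sets of WWTR1 differed by -0.12 (adjusted p = 0.34) and -0.67, so the remaining TAZ mRNA was not the same in the groups compared, and the part of this in the results below was not tested.

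The 2 groups compared were close to each other in general array measures. Array medians lay between 5.07 and 5.11, but RMA brings the arrays to a common distribution, so these say little about the samples. The lowest correlation between arrays of a group was 0.9974 and no pair of arrays was identical. The 3′ minus 5′ signal of the ACTB control probe sets, a sign of RNA breakdown, lay between 1.87 and 2.07 in siAPC/siTAZ cells and between 1.98 and 2.12 in sibcat/siTAZ cells (two-sided exact permutation test, p = 0.4). The mean ACTB value was 1.985 in siAPC/siTAZ and 2.037 in sibcat/siTAZ cells, but 1.565 in siAPC, 1.81 in sibcat and 1.827 in siGFP cells. The part of this in the comparisons with those 3 groups was not tested. The mean level of 8 epithelial lineage markers lay between 9.81 and 9.89 in siAPC/siTAZ cells and between 9.74 and 9.79 in sibcat/siTAZ cells. Of these, KRT18, KRT5 and CDH1 were above 10 on every one of the 8 arrays, but KRT8 lay between 9.94 and 10.22. ITGB4 lay between 8.29 and 9.05, and 1 of the 8 markers stayed below the lowest array median on all 8 arrays. Of 9 leukocyte markers 7, and of 10 endothelial markers 6, stayed below the lowest array median on all 8 arrays, PTPRC, CD3D, CDH5 and KDR among them. The other markers of these lists did not. Among them, CD14, a pattern recognition co-receptor, stood at 5.59 to 5.77 in siAPC/siTAZ cells and 8.10 to 8.20 in sibcat/siTAZ cells, with a mean of 7.83 in siGFP cells. The endothelial PECAM1 stood at 5.45 to 5.93 in siAPC/siTAZ cells and 6.65 to 6.82 in sibcat/siTAZ cells. Of the lineage lists, 3 of 8 epithelial markers were higher and 2 lower, 1 of 10 endothelial markers was lower (PECAM1, -1.0) and 1 of 9 leukocyte markers was lower (CD14). Over all genes 20.8% were called higher and 24.2% lower. Precision is limited by having 4 arrays in a group. The labels do not say whether the biological replicates came from separate cultures, so a p-value reflects the spread among these samples alone, which may be technical.

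The 2 groups differed in much of the transcriptome, mostly by small amounts. Of 19775 genes tested with limma, 8908 (45.0%) were called at an adjusted p under 0.05, 4118 (20.8%) higher and 4790 (24.2%) lower in siAPC/siTAZ cells. The groups of 4 arrays did not overlap for 3909 genes (19.8%) that lay higher and 4568 (23.1%) that lay lower. The median absolute difference was 0.16 and the smallest called one 0.07, close to the median residual SD of 0.11, so most called genes differed by much less than 2-fold. At least 2-fold differences were called for 1150 genes (5.82%), 553 higher (2.80%) and 597 lower (3.02%). The median difference over all genes was -0.015. Each list below is set beside it and beside the shares of 20.8% higher and 24.2% lower.

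The siGFP arrays show on which side the difference arose, as a description, since each such comparison shares arrays with the one reported. Against siGFP, 47.2% of all genes were called in siAPC/siTAZ cells, 5.61% at least 2-fold, and 44.9% in sibcat/siTAZ cells, 3.67% at least 2-fold. The 553 genes at least 2-fold higher had a median difference from siGFP of 1.03 in siAPC/siTAZ cells and of -0.37 in sibcat/siTAZ cells. Among them, 286 were called at least 2-fold above siGFP in siAPC/siTAZ cells, as were 2.80% of all genes tested. In sibcat/siTAZ cells 144 of them were called at least 2-fold below it, as were 2.26% of all genes tested. The 597 genes at least 2-fold lower had a median difference from siGFP of -0.80 in siAPC/siTAZ cells and of 0.57 in sibcat/siTAZ cells. Among them, 215 were called at least 2-fold below siGFP in siAPC/siTAZ cells, as were 2.81% of all genes tested. The genes that separate the groups thus include both genes that departed from the control in siAPC/siTAZ cells and genes that departed from it the other way in sibcat/siTAZ cells.

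**Figure D1:**
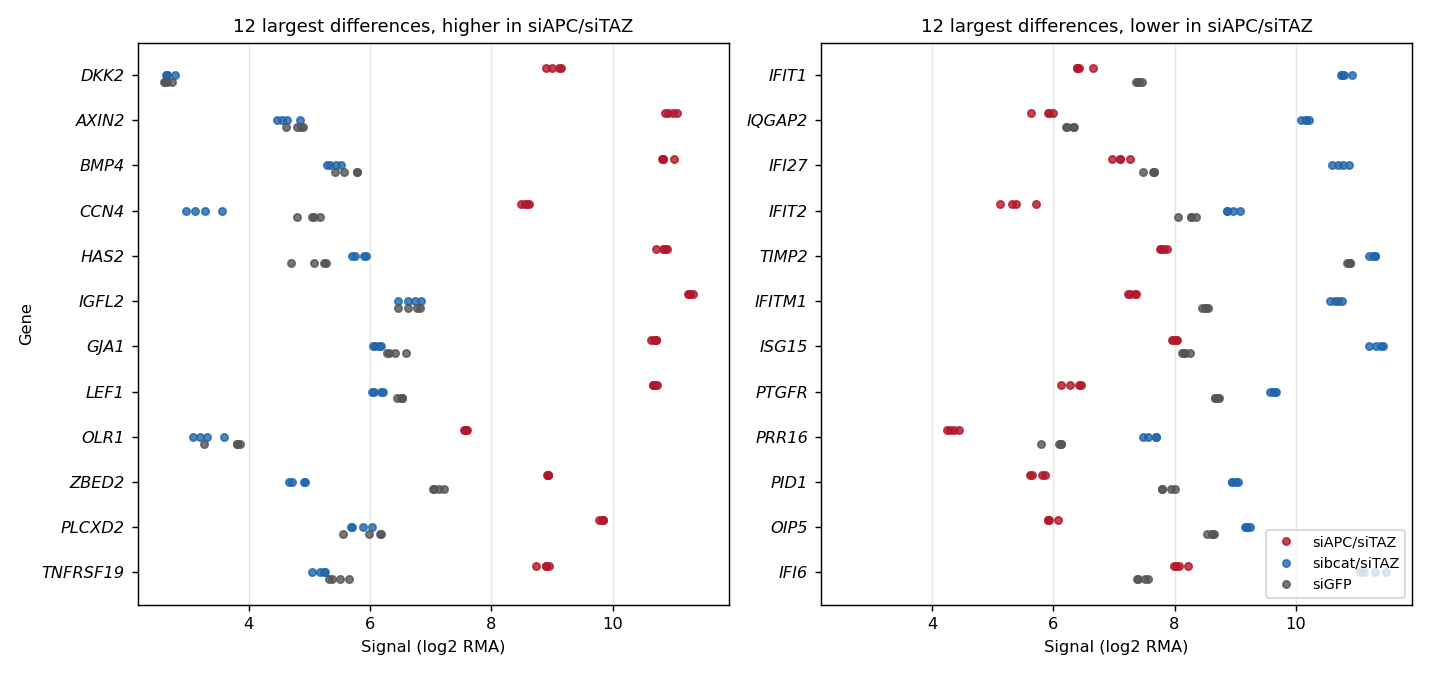
Signal (log2 RMA) on every array for the 12 genes with the largest difference in each direction, in siAPC/siTAZ, sibcat/siTAZ and siGFP cells; each point is 1 array. Only called genes whose 2 groups do not overlap could be chosen, so the gap between these groups is part of the choice. Among the higher genes most sibcat/siTAZ arrays lie near the siGFP arrays.

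The feedback genes and targets of beta-catenin/TCF were the first group to separate the cells. AXIN2, the destruction complex scaffold that beta-catenin itself induces, stood at 10.99, 10.87, 10.92 and 11.06 in siAPC/siTAZ cells, against 4.55, 4.63, 4.84 and 4.46 in sibcat/siTAZ cells. The signals were 81.0-fold apart (log2 difference 6.34 ± 0.08 SE), a ratio that is likely compressed because the sibcat/siTAZ level lay below the array medians. LEF1, a TCF/LEF factor and itself a target, stood at 10.74, 10.67, 10.67 and 10.70 in siAPC/siTAZ cells, against 6.06, 6.18, 6.22 and 6.03 in sibcat/siTAZ cells, 23.8-fold apart. Other probe sets gave smaller differences: 0.75, 1.51 and 0.69 for AXIN2, and 2.025 and 0.16 (adjusted p = 0.14) for LEF1. The fold differences given are thus those of 1 probe set each. The siGFP means were 4.79 for AXIN2 and 6.50 for LEF1. LEF1 was called below siGFP in sibcat/siTAZ cells by -0.38, a small part of its gap. For AXIN2 both levels lay below the array medians, where a fall below the control could hardly be seen.

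Of 37 measured Wnt feedback genes and beta-catenin/TCF targets, 22 were higher, 2 lower and 13 not called, with a median difference of 0.50 and 15 at least 2-fold higher, against 20.8% of all genes called higher. The strongest after AXIN2, BMP4 and LEF1 were the death receptor family member TNFRSF19 (3.69), the Wnt inhibitor APCDD1 (3.06), the R-spondin receptor LGR6 (2.83) and the homeobox factor MSX2 (2.67). Negative feedback genes of the pathway followed, with the ligases RNF43 (1.45) and ZNRF3 (1.39), which remove Frizzled receptors from the membrane, and the Dishevelled inhibitor NKD1 (1.29). The skeletal transcription factor RUNX2 stood at 11.20 to 11.26 in siAPC/siTAZ cells and at 9.16 to 9.21 in sibcat/siTAZ cells. CCND1, which encodes cyclin D1, stood at 10.15 to 10.23 in siAPC/siTAZ cells and at 8.07 to 8.17 in sibcat/siTAZ cells, but at a mean of 10.52 in siGFP cells. Most of the gap of CCND1 thus lay on the sibcat/siTAZ side.

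Several well-known targets were not called. LGR5, the intestinal stem cell receptor, had a mean of 4.08 in siAPC/siTAZ cells and 4.23 in sibcat/siTAZ cells (adjusted p = 0.39). NOTUM, the secreted Wnt deacylase, had 5.88 in siAPC/siTAZ cells and 5.83 in sibcat/siTAZ cells (adjusted p = 0.67). DKK1, DKK4, CDX1, CDX2, ASCL2 and CD44 were not called either. MYC, the growth factor-regulated oncogene that is a textbook beta-catenin target in colon, was called with a difference of only 0.10, at 11.86 in siAPC/siTAZ cells and 11.76 in sibcat/siTAZ cells. The 2 members that were lower were SGK1 (-0.41), a kinase, and MSX1 (-0.21).

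SP5, a transcription factor that dampens TCF targets, stood at 6.40, 6.13, 6.36 and 5.66 in siAPC/siTAZ cells, against 4.37, 4.02, 4.02 and 3.89 in sibcat/siTAZ cells, a difference of 2.06 ± 0.16 (SE). The sibcat/siTAZ values lay at the siGFP mean of 4.11 and below the array medians. Its promoter, chosen after its values were seen, is shown with that of IGFL2, a secreted member of the insulin growth factor-like family and the sixth of the largest differences, because both hold letters that match a TCF/LEF site in the 300 bases around the start. The sequences run 5′ to 3′ on the gene's strand (RefSeq, GRCh38.p14) with matches to CTTTGAA or CTTTGAT, on either strand, in capitals. SP5 lies on the plus strand at chr2:170715087-170715386 and IGFL2 on the plus strand at chr19:46147988-46148287.
SP5: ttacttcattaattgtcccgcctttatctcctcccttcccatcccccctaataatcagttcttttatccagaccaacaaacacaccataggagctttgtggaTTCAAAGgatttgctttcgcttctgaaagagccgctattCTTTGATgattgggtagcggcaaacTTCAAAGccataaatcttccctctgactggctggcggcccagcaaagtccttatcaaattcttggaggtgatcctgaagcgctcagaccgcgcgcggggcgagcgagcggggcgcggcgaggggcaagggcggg
IGFL2: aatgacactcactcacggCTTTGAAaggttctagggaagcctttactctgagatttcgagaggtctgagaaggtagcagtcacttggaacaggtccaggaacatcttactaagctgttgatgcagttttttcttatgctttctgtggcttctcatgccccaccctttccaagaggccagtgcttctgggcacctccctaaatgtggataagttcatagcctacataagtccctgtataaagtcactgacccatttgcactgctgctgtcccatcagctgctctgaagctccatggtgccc
In the promoter table, 20 of the 37 list genes had an entry, and 3 of these held CTTTGAA (15%), against 4.53% of all 27305 promoters, and 1 held CTTTGAT (5%), against 2.64%. A match in these windows is a description of the letters, not of a bound site.

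**Figure D2:**
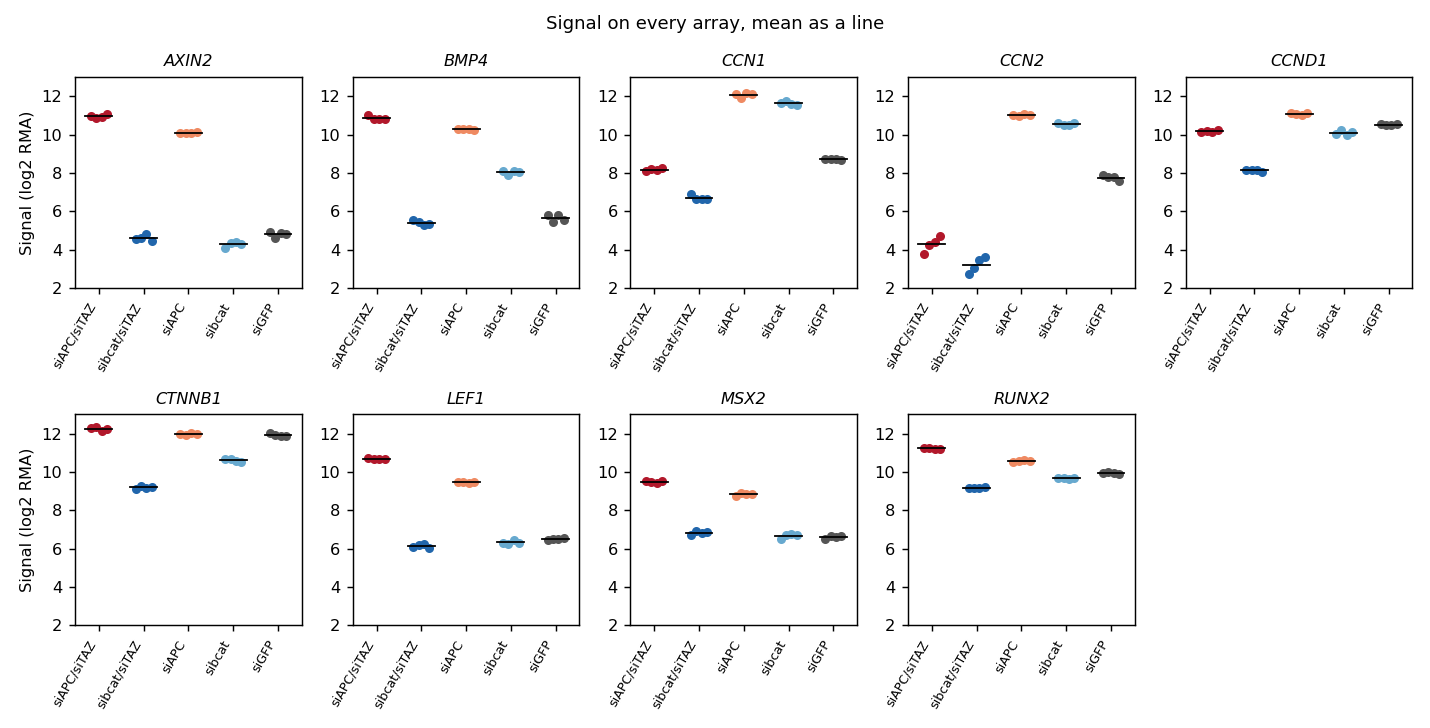
Signal (log2 RMA) of 9 genes in the 5 groups, from siAPC/siTAZ on the left to siGFP on the right; each point is 1 array and each line a group mean. AXIN2, LEF1 and MSX2 are low in sibcat/siTAZ, sibcat and siGFP cells alike, while CCN1 and CCN2 are far lower in both groups with TAZ siRNA than in siAPC or sibcat cells.

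Among the components of the pathway itself, the differences were smaller. Of 29 measured destruction complex genes and beta-catenin partners, 19 were higher, 3 lower and 7 not called (median 0.23). Besides AXIN2, LEF1 and CTNNB1 itself, the kinases CSNK1A1 (0.80) and GSK3B (0.68), the ligase adaptor BTRC (0.46), the transcription factor TCF7L2 (0.64) and the corepressors TLE1 (0.91) and TLE4 (0.82) were higher. APC and its membrane partner AMER1 (-0.79) were lower, with BCL9L (-0.24). AXIN1 and GSK3A were not called. Of 46 Wnt ligands, receptors and secreted antagonists only 8 were higher and 7 lower, with 31 not called (median -0.02). For both lists the shares of all genes were 20.8% higher and 24.2% lower. The receptor FZD7 was higher by 1.81, while FZD5 (-1.15), FZD1 (-0.85) and the secreted antagonist family member DKK3 (-1.52) were lower. The ligand WNT5A was higher by 0.55, and no other Wnt ligand was called in either direction.

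DKK2, which encodes a secreted modulator of the LRP coreceptors, had a difference of 6.36 ± 0.07 (SE), which cannot be ranked against that of AXIN2 within these errors. It stood at 8.90, 9.11, 9.01 and 9.15 in siAPC/siTAZ cells, against 2.63, 2.66, 2.78 and 2.65 in sibcat/siTAZ cells, 82.3-fold apart, with a siGFP mean of 2.65. A second probe set for DKK2 stayed at means of 2.45 in siAPC/siTAZ cells and 2.43 in sibcat/siTAZ cells, so the difference rests on 1 of its 2 probe sets. Levels this far below the array medians are near the floor of the array, where RMA compresses differences.

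BMP4, a ligand of the BMP pathway, stood at 11.02, 10.84, 10.82 and 10.83 in siAPC/siTAZ cells, against 5.52, 5.44, 5.29 and 5.34 in sibcat/siTAZ cells, 44.6-fold apart. CCN4, a matricellular protein also called WISP1, stood at 8.49, 8.55, 8.59 and 8.62 in siAPC/siTAZ cells, against 3.28, 2.96, 3.56 and 3.11 in sibcat/siTAZ cells. HAS2, which makes hyaluronan, stood at 10.86, 10.89, 10.84 and 10.72 in siAPC/siTAZ cells, against 5.90, 5.93, 5.71 and 5.76 in sibcat/siTAZ cells. These genes of the extracellular space were at least 32.1-fold apart. GJA1, which encodes connexin 43, averaged 10.69 ± 0.03 in siAPC/siTAZ cells and 6.12 ± 0.06 in sibcat/siTAZ cells (SD, n = 4 each). The oxidised LDL receptor OLR1 (4.28), the zinc finger gene ZBED2 (4.12), the phospholipase-like gene PLCXD2 (4.00) and TNFRSF19 (3.69) completed the 12 genes with the largest difference. Further probe sets differed by 3.05, 0.30 and 3.76 for CCN4, by 0.92 and 0.28 for TNFRSF19 and by 0.16 (not called) for PLCXD2. In sibcat/siTAZ cells 7 of the 12 were called below siGFP: ZBED2 by -2.31 and CCN4 by -1.79, and OLR1, LEF1, TNFRSF19, GJA1 and BMP4 by -0.25 to -0.39. For OLR1 both of these levels lay below the array medians, so its shift is one near the floor. HAS2 was called above siGFP there, by 0.75. Among all 24 genes with the largest differences the standard errors lay between 0.04 and 0.11 and the highest adjusted p was 3.3e-16. They were chosen among called genes without overlap, so their calls and lack of overlap are no separate result.

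Interferon-stimulated genes supplied the most members to the 12 largest lower differences. These genes encode antiviral proteins and are switched on when interferon signalling brings STAT and IRF factors to a short promoter element. IFIT1, which binds foreign RNA ends, stood at 6.39, 6.66, 6.39 and 6.42 in siAPC/siTAZ cells, against 10.79, 10.75, 10.76 and 10.92 in sibcat/siTAZ cells, 20.3-fold lower. ISG15, a ubiquitin-like protein, stood at 7.98, 8.04, 8.03 and 7.96 in siAPC/siTAZ cells, against 11.40, 11.21, 11.32 and 11.43 in sibcat/siTAZ cells. IFI27 stood at 7.27, 6.97, 7.10 and 7.10 in siAPC/siTAZ cells, against 10.77, 10.60, 10.69 and 10.88 in sibcat/siTAZ cells. Of the 12 largest lower differences, 6 were of this list, including IFIT2 (-3.56), IFITM1 (-3.37) and IFI6 (-3.17).

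Of 36 measured interferon response genes none was higher, 35 were lower and CMPK2 (0.08) was not called, with a median difference of -1.46 and 27 at least 2-fold lower, against 24.2% of all genes called lower. The list covered effectors (OAS1 -2.51, MX1 -2.44, OASL -2.88, BST2 -2.61), sensors (IFIH1 -1.53, RIGI -1.17) and the transcription factors IRF9 (-2.05) and IRF7 (-1.34). IRF1, the factor most tied to interferon gamma, differed by only -0.37. Their mean level lay between 6.87 and 6.92 in siAPC/siTAZ cells and between 8.55 and 8.68 in sibcat/siTAZ cells, against 7.07 to 7.16 in siGFP cells. Against siGFP, 7 were higher and 16 lower in siAPC/siTAZ cells, where 23.0% of all genes were higher and 24.3% lower. In sibcat/siTAZ cells 32 were higher and 1 lower, where 25.4% of all genes were higher and 19.5% lower. Most of the gap thus lay in sibcat/siTAZ cells above the control. Interferon protein was not measured.

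Downstream of interferon, the antigen presentation genes differed less. Of 14 measured MHC class I presentation genes none was higher, 6 were lower and 8 not called (median -0.08). Over all genes 20.8% were higher and 24.2% lower. The regulator NLRC5 (-1.21), the immunoproteasome subunit PSMB9 (-1.06) and the peptidase ERAP1 (-0.76) were lower, while B2M, HLA-B, HLA-C and HLA-E were not called. The interferon-inducible chemokines CXCL11 (-1.62), CCL5 (-1.25) and CXCL10 (-1.10) were lower.

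Promoters of 4 interferon genes among the largest lower differences are shown because they hold letters of the interferon-stimulated response element; they were chosen after their motifs were seen, and that of IFITM1, also in the table, is not shown. They are printed with matches to GAAA, any 2 bases and GAAA again, on either strand, in capitals; where matches overlap the capitals run together. IFIT1 lies on the plus strand at chr10:89392373-89392672, ISG15 on the plus strand at chr1:1013247-1013546, IFI27 on the plus strand at chr14:94110486-94110785 and IFI6 on the minus strand at chr1:27672143-27672442.
IFIT1: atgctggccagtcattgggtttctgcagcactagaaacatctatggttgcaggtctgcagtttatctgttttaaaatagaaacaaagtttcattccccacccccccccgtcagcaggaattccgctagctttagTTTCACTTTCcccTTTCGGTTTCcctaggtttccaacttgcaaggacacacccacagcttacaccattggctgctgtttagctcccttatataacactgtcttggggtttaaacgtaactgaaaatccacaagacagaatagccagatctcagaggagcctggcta
ISG15: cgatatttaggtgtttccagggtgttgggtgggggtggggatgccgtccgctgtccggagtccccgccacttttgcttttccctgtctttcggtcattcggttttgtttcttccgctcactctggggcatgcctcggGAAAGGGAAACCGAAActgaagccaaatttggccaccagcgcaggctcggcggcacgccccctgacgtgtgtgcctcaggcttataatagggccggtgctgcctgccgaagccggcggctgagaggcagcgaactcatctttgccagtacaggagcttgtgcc
IFI27: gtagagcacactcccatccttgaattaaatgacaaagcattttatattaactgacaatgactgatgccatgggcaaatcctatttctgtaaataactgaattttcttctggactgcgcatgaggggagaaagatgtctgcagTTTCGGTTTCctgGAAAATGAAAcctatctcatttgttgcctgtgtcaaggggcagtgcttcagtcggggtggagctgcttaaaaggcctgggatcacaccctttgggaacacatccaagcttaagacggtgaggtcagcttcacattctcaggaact
IFI6: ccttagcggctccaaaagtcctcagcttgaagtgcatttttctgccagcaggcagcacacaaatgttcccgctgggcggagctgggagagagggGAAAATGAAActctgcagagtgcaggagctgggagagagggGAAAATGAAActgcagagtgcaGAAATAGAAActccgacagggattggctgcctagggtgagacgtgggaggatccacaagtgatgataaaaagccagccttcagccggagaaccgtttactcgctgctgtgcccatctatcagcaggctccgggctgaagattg
Of 29 interferon response genes with a promoter in the table, 18 (62.1%) held this motif, against 3.65% of all 27305 promoters.

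Cell cycle genes were lower in siAPC/siTAZ cells as a body. In a bulk sample fewer cycling cells and less RNA per cell cannot be told apart. All 35 measured mitosis genes were called lower, 30 of them at least 2-fold, with a median difference of -1.56, against 24.2% of all genes called lower. CCNB1, which encodes cyclin B1, stood at 9.61, 9.61, 9.50 and 9.54 in siAPC/siTAZ cells, against 11.44, 11.35, 11.34 and 11.46 in sibcat/siTAZ cells. The kinetochore gene NDC80 stood at 7.74, 7.75, 7.63 and 7.67 in siAPC/siTAZ cells, against 9.75, 9.65, 9.74 and 9.72 in sibcat/siTAZ cells. The NDC80 complex partners SPC25 (-2.35) and NUF2 (-2.31) had the largest differences of the list, and the proliferation marker MKI67 was lower by -1.90. The kinase AURKA, the motors KIF20A and CENPE and the spindle protein DLGAP5 were lower by -1.64 to -2.06. The least affected were BUB3 (-0.34) and CENPN (-0.35).

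Replication genes were lower too, with a smaller median difference. Of 36 measured S phase and replication genes 1 was higher, 33 were lower and 2 were not called, with a median of -1.06 and 21 at least 2-fold lower. MCM6, a subunit of the replicative helicase, stood at 7.89, 7.88, 7.94 and 7.96 in siAPC/siTAZ cells, against 10.45, 10.40, 10.39 and 10.36 in sibcat/siTAZ cells. UHRF1, which guides maintenance of DNA methylation, stood at 7.82, 7.88, 7.83 and 7.89 in siAPC/siTAZ cells, against 9.82, 9.85, 9.83 and 9.80 in sibcat/siTAZ cells. CCNE2 (-2.05) and the GINS subunit GINS2 (-2.02) followed. E2F1 and GINS3 were not called, and RFC5 was higher by 0.16.

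Both groups had left the control, in opposite directions. The mean level of the mitosis genes lay between 8.52 and 8.54 in siAPC/siTAZ cells and between 9.97 and 10 in sibcat/siTAZ cells, with 9.22 to 9.25 in siGFP cells. Against siGFP, 2 mitosis genes were higher and 32 lower in siAPC/siTAZ cells, and 34 were higher and none lower in sibcat/siTAZ cells, beside the shares of all genes given for the interferon list. For replication genes the counts were none higher and 33 lower in siAPC/siTAZ cells, and 29 higher and 2 lower in sibcat/siTAZ cells, beside the same shares. MCM6 and UHRF1 lay almost at their siGFP means of 10.24 and 9.74 in sibcat/siTAZ cells, so their gap lay on the siAPC/siTAZ side.

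**Figure D3:**
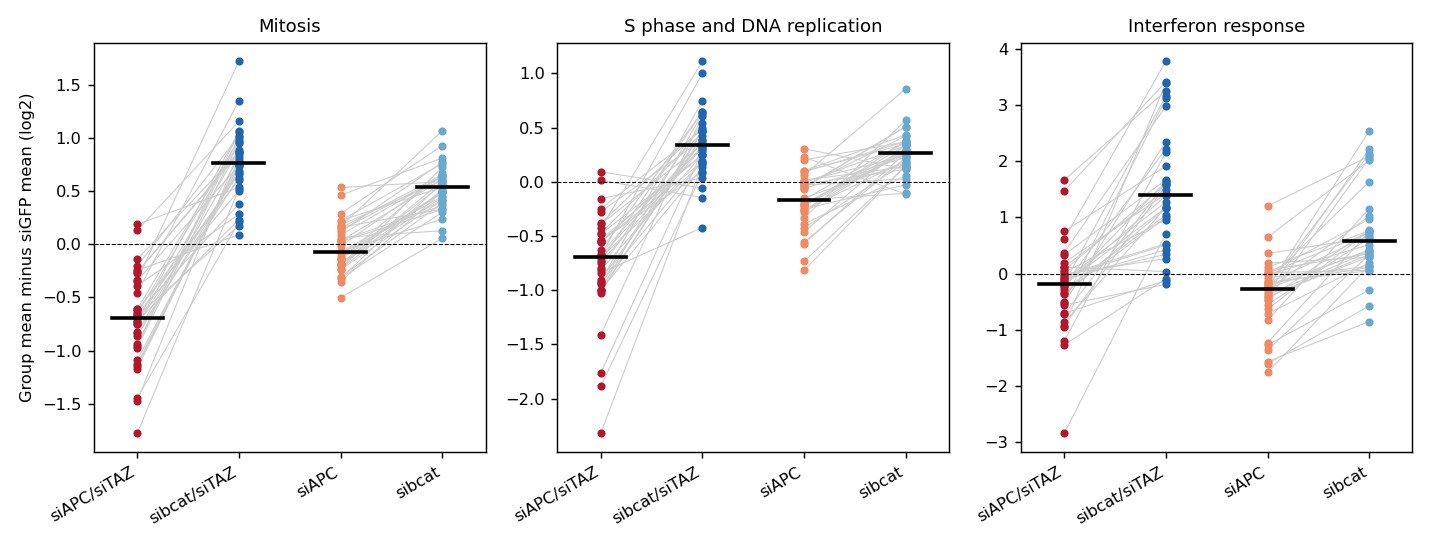
Group mean minus siGFP mean (log2) for each gene of 3 lists in siAPC/siTAZ, sibcat/siTAZ, siAPC and sibcat cells; points are genes, grey lines join a gene across a pair of groups, black bars are medians and the dashed line marks the siGFP level. Most mitosis and replication genes lie below the dashed line in siAPC/siTAZ cells and above it in sibcat/siTAZ cells, and most interferon genes lie above it in sibcat/siTAZ cells.

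Inhibitors of the cycle and p53 targets ran mostly the other way. Of 22 measured, 15 were higher, 2 lower and 5 not called (median 0.37), against 20.8% of all genes higher and 24.2% lower. CDKN1A, which encodes the CDK inhibitor p21, stood at 11.43 to 11.49 in siAPC/siTAZ cells and at 10.09 to 10.20 in sibcat/siTAZ cells, with a siGFP mean of 11.36. The death receptor FAS (1.47), TP53INP1 (1.40), GADD45A (1.01), SESN1 (0.84), SESN2 (0.80) and MDM2 (0.62) were higher. The 2 inhibitors that were lower were CDKN2D (-1.36) and CDKN1B (-1.13), which encodes p27. BAX, CDKN2A and CDKN2B were not called.

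Promoters are shown for 4 cell cycle genes, chosen after their motifs were seen, whose windows hold the motifs known for these classes. For DLGAP5 and NDC80 the capitals mark TTTGAA, the cell cycle homology region core, for UHRF1 they mark TTTCCCGC and for MCM6 TTTGGCGC, both E2F sites, on either strand. DLGAP5 lies on the minus strand at chr14:55191536-55191835, NDC80 on the plus strand at chr18:2571307-2571606, UHRF1 on the plus strand at chr19:4909251-4909550 and MCM6 on the minus strand at chr2:135876394-135876693.
DLGAP5: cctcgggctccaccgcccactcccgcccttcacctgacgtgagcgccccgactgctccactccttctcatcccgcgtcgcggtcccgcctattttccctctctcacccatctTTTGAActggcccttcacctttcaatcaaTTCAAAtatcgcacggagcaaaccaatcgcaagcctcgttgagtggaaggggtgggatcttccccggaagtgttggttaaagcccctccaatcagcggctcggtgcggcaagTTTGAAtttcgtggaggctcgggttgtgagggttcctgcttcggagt
NDC80: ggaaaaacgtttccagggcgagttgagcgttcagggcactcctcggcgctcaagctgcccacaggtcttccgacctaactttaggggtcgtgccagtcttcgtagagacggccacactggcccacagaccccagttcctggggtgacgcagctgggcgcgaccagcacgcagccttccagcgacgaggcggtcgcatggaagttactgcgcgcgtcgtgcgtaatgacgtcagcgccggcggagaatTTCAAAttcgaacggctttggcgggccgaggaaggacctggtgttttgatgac
UHRF1: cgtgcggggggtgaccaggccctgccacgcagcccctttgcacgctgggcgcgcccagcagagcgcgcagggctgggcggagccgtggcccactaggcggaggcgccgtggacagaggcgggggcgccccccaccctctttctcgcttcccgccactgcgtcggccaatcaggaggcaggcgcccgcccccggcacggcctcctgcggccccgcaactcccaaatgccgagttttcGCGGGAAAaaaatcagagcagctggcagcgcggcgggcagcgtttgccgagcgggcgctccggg
MCM6: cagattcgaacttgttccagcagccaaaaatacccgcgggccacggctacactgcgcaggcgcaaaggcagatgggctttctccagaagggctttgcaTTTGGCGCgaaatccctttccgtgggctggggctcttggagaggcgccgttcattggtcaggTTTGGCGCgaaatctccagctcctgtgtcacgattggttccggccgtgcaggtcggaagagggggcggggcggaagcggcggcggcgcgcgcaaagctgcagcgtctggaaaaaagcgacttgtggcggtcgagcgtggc
TTTGAA was held by 22 of 29 mitosis promoters (75.9%), against 15.4% of all promoters in the table. TTTCCCGC was held by 10 of 32 replication promoters (31.2%), against 1.66% of all, and TTTGGCGC by 7 of 32 (21.9%), against 0.659% of all.

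Signalling by the TGF-beta and BMP family was mixed, with ligands and inhibitors higher and some receptors and mediators lower. Of 33 measured genes 20 were higher, 7 lower and 6 not called (median 0.47), against 20.8% of all genes higher and 24.2% lower. Among ligands, BMP4 was followed by TGFB2 (1.92), INHBA (1.7), which encodes the activin A subunit, and TGFB3 (1.34), while TGFB1 was lower (-0.52). The receptor ACVR1 stood at a mean of 10.03 in siAPC/siTAZ cells and of 7.90 in sibcat/siTAZ cells. TGFBR1 ran opposite, at 7.75 to 7.86 in siAPC/siTAZ cells and at 10.36 to 10.55 in sibcat/siTAZ cells, with a siGFP mean of 9.40. The BMP targets ID1 (0.56), ID2 (0.89) and ID3 (0.53), the pseudoreceptor BAMBI (1.78) and the inhibitory SMAD7 (0.77) were higher, and SMAD3 (-1.11) was lower.

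TAZ siRNA was common to both groups, and TEAD targets differed between them. Of 27 measured YAP/TAZ-TEAD targets 15 were higher, 7 lower and 5 not called (median 0.13), against 20.8% of all genes higher and 24.2% lower. Their mean level lay between 8.46 and 8.53 in siAPC/siTAZ cells and between 8.18 and 8.24 in sibcat/siTAZ cells, with 8.91 to 8.97 in siGFP cells. CCN1, the matricellular protein CYR61, stood at 8.10, 8.21, 8.15 and 8.25 in siAPC/siTAZ cells, against 6.90, 6.64, 6.66 and 6.65 in sibcat/siTAZ cells. CCN2, the connective tissue growth factor, stood at 3.77, 4.23, 4.38 and 4.70 in siAPC/siTAZ cells, against 2.72, 3.04, 3.45 and 3.64 in sibcat/siTAZ cells, and all 8 values lay far below the siGFP mean of 7.76. ANKRD1 lay at the floor, with means of 3.09 in siAPC/siTAZ cells and 3.02 in sibcat/siTAZ cells (adjusted p = 0.62). Its siGFP mean of 3.08 lay there too, and only siAPC (8.68 to 8.80) and sibcat cells (8.06 to 8.34) were high. ASAP1 (1.17), CRIM1 (1.14), GADD45A (1.01) and AMOTL2 (1.03) were higher, while RBMS3 (-1.32) and MYOF (-0.90) were lower. BIRC5 (-1.03), also in the list, is a mitosis gene as well.

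Of 29 measured Hippo pathway genes, 15 were higher, 4 lower and 10 not called (median 0.23), against 20.8% of all genes higher and 24.2% lower. The upstream regulators FRMD6 (1.55), FAT4 (1.10), FAT1 (0.89) and WWC1 (0.81), the angiomotins AMOTL1 (0.95) and AMOTL2, the kinase LATS2 (0.70) and the factor TEAD2 (0.81) were higher. The coactivator YAP1 itself was lower, with means of 9.62 in siAPC/siTAZ cells and 10.14 in sibcat/siTAZ cells (difference -0.53). LATS1 and SAV1 were not called.

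Beta-catenin is also a junction protein, and the junction genes were examined by complex. Of 17 adherens junction genes 12 were higher, 1 lower and 4 not called (median 0.36). For this and the other junction lists the shares of all genes were 20.8% higher and 24.2% lower. CDH11, a mesenchymal cadherin, stood at 9.22 to 9.30 in siAPC/siTAZ cells and at 5.83 to 5.93 in sibcat/siTAZ cells, with a siGFP mean of 5.39. CDH1, which encodes E-cadherin, stood at 11.47 to 11.55 in siAPC/siTAZ cells and at 10.70 to 10.79 in sibcat/siTAZ cells, with a siGFP mean of 11.87. The plakoglobin gene JUP, which can stand in for beta-catenin at junctions, was higher by 0.18, and the nectin-binding AFDN was lower by -0.57, but by only -0.061 (adjusted p = 0.436) with the mean of all its probe sets. Of 22 desmosome and tight junction genes 9 were higher, 4 lower and 9 not called, led by the tight junction gene MARVELD2 (1.76) and by PKP2 (1.44), DSG3 (1.36) and DSC2 (1.22) of the desmosome. Of 11 gap junction genes 4 were higher, 2 lower and 5 not called, with GJB2 (1.81) and GJA3 (1.22) after GJA1.

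Epithelial and mesenchymal genes did not split by class between the 2 groups compared, though they did against siGFP in both. Over all genes 20.8% were higher and 24.2% lower. Of 18 epithelial identity genes 10 were higher, 3 lower and 5 not called (median 0.21), and of 20 mesenchymal genes 14 were higher, 4 lower and 2 not called (median 0.21). Against siGFP, 17 epithelial identity genes were lower and none higher in each group. Of the mesenchymal genes 17 were higher in siAPC/siTAZ and 15 in sibcat/siTAZ cells, with 2 lower in each. Of all genes 23.0% were higher and 24.3% lower in siAPC/siTAZ cells, and 25.4% and 19.5% in sibcat/siTAZ cells. The vesicle GTPase RAB25 (1.73), CDH1 and the factors GRHL2 (0.48) and EHF (0.44) were higher, and EPCAM (-0.59) was lower. The smooth muscle actin ACTA2 stood at 10.37 to 10.50 in siAPC/siTAZ cells and at 8.35 to 8.54 in sibcat/siTAZ cells, with a siGFP mean of 7.95. COL3A1 (1.7), TAGLN (1.42), COL1A1 (0.64), ZEB1 (0.47) and VIM (0.21) were higher too, while SNAI1 and SNAI2 were not called. COL3A1 and COL1A1 are also among 10 fibroblast markers, of which 4 were higher and 2 lower. The mean level of those markers lay between 7.16 and 7.25 in siAPC/siTAZ cells and between 6.90 and 7.07 in sibcat/siTAZ cells, against 6.39 to 6.52 in siGFP cells. DCN of that list was high throughout, at 12.49 to 12.51 in siAPC/siTAZ, 12.69 to 12.82 in sibcat/siTAZ and 12.28 to 12.39 in siGFP cells. PDGFRB, THY1 and LUM of that list were not called, and the part of other cells in these values was not tested.

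Of 39 extracellular matrix and integrin genes 18 were higher, 10 lower and 11 not called (median 0.06). The shares of all genes were 20.8% higher and 24.2% lower, so the lower count lay near its share. The collagen-binding integrin subunits ITGA1 (2.83) and ITGA2 (1.5), ITGA4 (1.91) and the proteoglycan VCAN (0.97) were higher, while ITGAV (-1.05), COL12A1 (-1.35) and COL8A1 (-1.26) were lower. The protease inhibitor TIMP2 had the largest difference of the matrix regulators on the lower side, at 7.76, 7.83, 7.78 and 7.88 in siAPC/siTAZ cells, against 11.30, 11.27, 11.20 and 11.30 in sibcat/siTAZ cells. All 3 probe sets of TIMP2 were lower, by -1.12 to -3.46. The scaffold IQGAP2 stood at 5.64, 6.0, 5.93 and 5.92 in siAPC/siTAZ cells, against 10.21, 10.16, 10.17 and 10.08 in sibcat/siTAZ cells, with a siGFP mean of 6.28, and its other probe set stayed near 2.56 in both. The remaining large lower differences were of PTGFR (-3.31), a prostaglandin receptor, PRR16 (-3.28), PID1 (-3.25) and OIP5 (-3.24), which is needed for loading of the centromeric histone.

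Basal and luminal genes went both ways, mostly by small amounts. Of 10 basal/myoepithelial genes 5 were higher, 3 lower and 2 not called (median 0.08), against 20.8% of all genes higher and 24.2% lower, with KRT5 at a difference of 0.34 and OXTR at -1.48. Of 21 luminal genes 7 were higher, 2 lower and 12 not called (median 0.07), with CEACAM6 (1.74) and CEACAM1 (0.90) as the largest. Of 23 squamous differentiation genes 12 were higher, 5 lower and 6 not called (median 0.21). KRT13 (2.40), SCEL (2.32), SPRR1B (1.47) and KLK7 (1.07) were higher, whereas S100A8 (-1.45) and S100A9 (-0.98), which encode calprotectin, were lower. KRT13, SCEL and KLK7 lay below their siGFP values on all 8 arrays. Against siGFP, 16 squamous genes were lower and 1 higher in siAPC/siTAZ cells, and 18 lower and none higher in sibcat/siTAZ cells. Of the luminal genes 15 were lower in siAPC/siTAZ and 16 in sibcat/siTAZ cells, with none higher. Of all genes 24.3% were lower in siAPC/siTAZ cells and 19.5% in sibcat/siTAZ cells.

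Growth factor feedback was mixed. Of 34 EGF family and ERK feedback genes 19 were higher, 6 lower and 9 not called (median 0.23). Over all genes 20.8% were higher and 24.2% lower. The immediate early factor EGR1 stood at 10.25 to 10.39 in siAPC/siTAZ cells and at 7.95 to 8.19 in sibcat/siTAZ cells, with a siGFP mean of 10.51, and JUN stood at 9.67 to 9.78 in siAPC/siTAZ cells and at 7.64 to 7.87 in sibcat/siTAZ cells. The feedback genes SPRY1 (1.18), ETV5 (0.91), SPRY4 (0.69) and DUSP6 (0.67) were higher. The phosphatases DUSP5 (-2.09) and DUSP1 (-1.13) and the ligand EREG (-2.16) were lower.

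Of 34 cytokine and chemokine genes 16 were higher, 9 lower and 9 not called (median 0.06). The shares of all genes were 20.8% higher and 24.2% lower, so the lower count lay near its share. The neutrophil chemokine CXCL8 stood at 11.45 to 11.66 in siAPC/siTAZ cells and at 9.33 to 9.40 in sibcat/siTAZ cells. IL33 (2.36), CXCL6 (2.23), PTGS2 (2.19), TNFAIP3 (1.58), IL1RN (1.41) and CXCL1 (1.20) were higher too. The IL33 mean of 3.10 in sibcat/siTAZ cells lay near the floor. IL6 ran opposite to CXCL8, at 6.23 to 6.55 in siAPC/siTAZ cells and at 8.41 to 8.54 in sibcat/siTAZ cells, with a siGFP mean of 6.84.

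Metabolic lists shifted by small amounts, mostly to the lower side, where the shares of all genes were 20.8% higher and 24.2% lower. Of 31 hypoxia and glycolysis genes 4 were higher, 18 lower and 9 not called (median -0.18). HK2, the first enzyme of glycolysis, differed by -1.25, ENO1 by -0.44 and LDHA by -0.36. Of 28 amino acid and unfolded protein stress genes 5 were higher, 15 lower and 8 not called (median -0.16), with SDF2L1 (-1.28), PSPH (-1.22) and ASNS (-0.88) lower and the cystine carrier SLC7A11 (1.11) higher. Of 23 cholesterol and fatty acid genes 4 were higher, 12 lower and 7 not called (median -0.17), with HMGCS1 (-1.08) and INSIG1 (-1.05) lower and LSS (1.08) higher. Of 26 oxidative phosphorylation genes 5 were higher, 11 lower and 10 not called (median -0.05), and none reached 2-fold. Of 25 actin and SRF genes 11 were higher, 5 lower and 9 not called (median 0.02). Of 22 Notch genes 7 were higher, 5 lower and 10 not called (median 0.02). The lower counts of both lists lay near the share of all genes. HEY2 (0.93), JAG1 (0.87) and HEY1 (0.62) were the largest of the higher Notch genes.

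**Figure D4:**
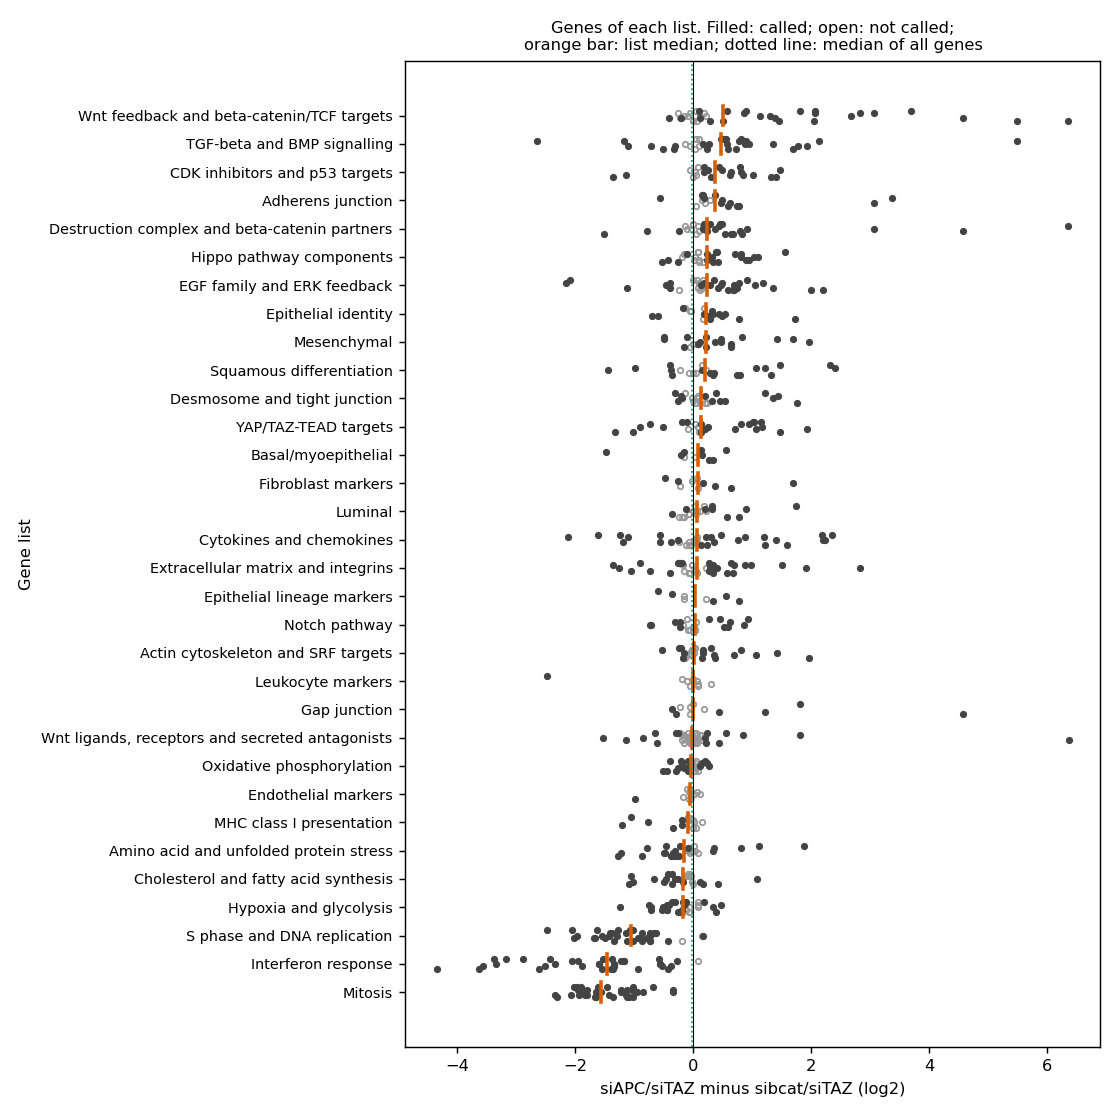
Difference, siAPC/siTAZ minus sibcat/siTAZ (log2), of every measured gene in 32 lists, ordered by the list median; filled points were called, open points were not, orange bars are medians and the dotted line is the median of all genes. The mitosis, interferon and replication lists lie apart at the bottom with medians of -1.56, -1.46 and -1.06, and the Wnt target list is at the top with 0.50.

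The same contrast can be read with TAZ not targeted, as siAPC against sibcat on 8 other arrays. There 6690 genes (33.8%) were called, 331 of them at least 2-fold (1.67%), against 1150 with TAZ siRNA in both groups. Of the 8908 genes called between siAPC/siTAZ and sibcat/siTAZ cells, 5198 were called in the same direction between siAPC and sibcat cells, which is 58.4% of the first and 77.7% of the second list, and 343 were called in the opposite direction. Of the 1150 genes at least 2-fold apart, 1055 were called in the same direction, 14 in the opposite direction and 81 not called. The difference between the 2 contrasts, tested as an interaction, was called for 5480 genes (27.7%), 2407 above 0 and 3073 below 0, and 335 of these were 2-fold or more (1.69%). The depletion of CTNNB1 and APC also differed between the contrasts, and its part in the interaction was not tested.

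CTNNB1 showed this directly. It averaged 12.26 ± 0.08 in siAPC/siTAZ cells and 9.20 ± 0.06 in sibcat/siTAZ cells, but 11.98 in siAPC cells and 10.60 in sibcat cells, so its difference was 3.06 with TAZ siRNA and 1.38 without (interaction 1.69 ± 0.07 SE). APC differed by -1.51 with TAZ siRNA and by -0.84 without. AXIN2 differed by 6.34 with TAZ siRNA and by 5.81 without (interaction 0.53), and IGFL2 had no called interaction (4.61 with TAZ siRNA and 4.32 without). The mitosis median was -1.56 with TAZ siRNA and -0.61 without, the replication median -1.06 and -0.47, and the interferon median -1.46 and -0.90. All 35 mitosis genes, 32 of 36 replication genes and 31 of 36 interferon genes had a called interaction below 0, against 15.5% of all genes. The interferon genes IRF1 (interaction 0.61) and SAMD9 (interaction 0.45) had one above 0, which was called for 12.2% of all genes. Of the Wnt targets 18 of 37 had one above 0 and 2 below it. The MHC class I presentation genes ran opposite to the interferon list: their median was -0.08 with TAZ siRNA and -0.32 without, 11 of 14 were lower in siAPC than in sibcat cells, and 6 had a called interaction above 0 and none below it.

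Among genes with a mean of at least 6 in a group other than siGFP, those with the largest interactions differed in how these came about. BMP4 had the largest interaction above 0 among these genes (3.23): its mean in sibcat cells was 8.04, against 5.40 in sibcat/siTAZ cells, while siAPC cells had 10.29. OLR1 (interaction 3.04) had means of 8.86 in siAPC cells and 7.62 in sibcat cells. ARL14, an ARF-like small GTPase with an interaction of 3.08, separated the cells mainly without TAZ siRNA and in the opposite direction: it averaged 6.86 in siAPC/siTAZ cells and 6.38 in sibcat/siTAZ cells, but 4.10 in siAPC cells and 6.70 in sibcat cells. Below 0, TIMP2 (-3.23), SDC2 (-2.73) and DEK (-2.36) differed by only -0.23, -0.26 and -0.32 without TAZ siRNA. TIMP2 and DEK left the siGFP level mainly in siAPC/siTAZ cells, by -3.06 and -2.66, while the membrane proteoglycan SDC2 differed from it by -1.54 in siAPC/siTAZ cells and by 1.44 in sibcat/siTAZ cells. All 3 probe sets of SDC2 were lower in siAPC/siTAZ than in sibcat/siTAZ cells, but 1 of them lay above siGFP in siAPC/siTAZ cells, by 0.36, so its side of the control there depends on the probe set. PRR16 (-3.38) and SRGN (-2.71) had differences of 0.11 and 0.41 without TAZ siRNA, where both were high: PRR16 averaged 9.05 in siAPC cells and 8.94 in sibcat cells, and SRGN 11.08 in siAPC cells and 10.67 in sibcat cells.

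**Figure D5:**
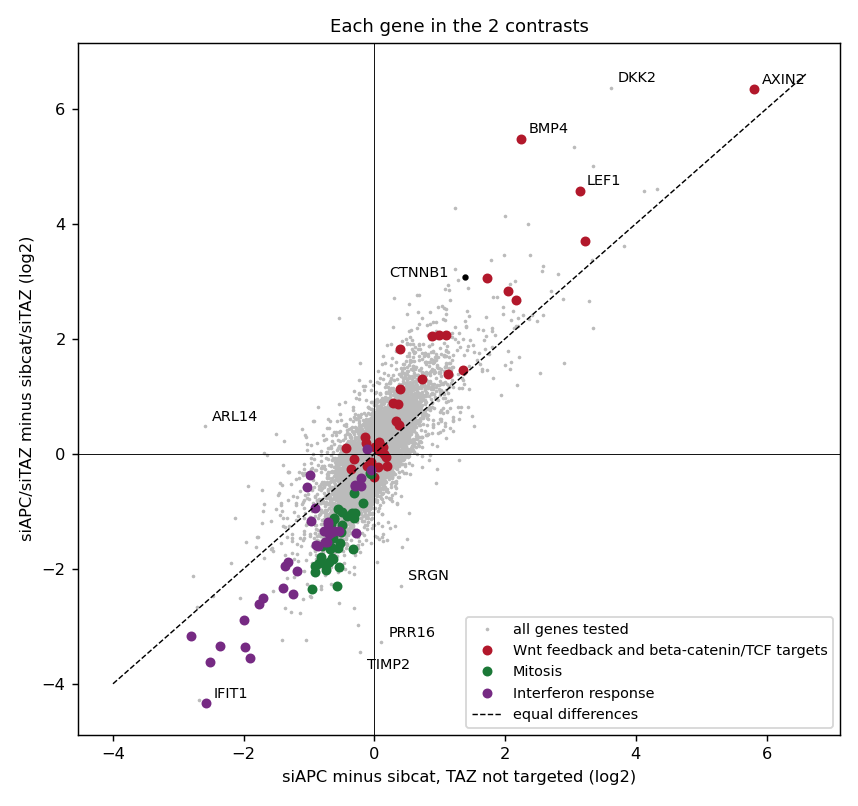
Difference of each of 19775 genes between siAPC/siTAZ and sibcat/siTAZ cells (vertical, log2) against the difference between siAPC and sibcat cells (horizontal, log2), with 3 lists in colour and the line of equal differences dashed. All mitosis genes and all but 3 interferon genes (IRF1, SAMD9 and CMPK2) lie below the dashed line, BMP4 and DKK2 lie far above it, and TIMP2 and PRR16 lie near 0 on the horizontal axis.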

How the data were processed

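The deposited table held log2 expression values for 54675 probe sets on 20 arrays, made by the authors with RMA (version not given), per the submitters' processing notes. Of these, 41091 probe sets carried 1 gene symbol, and each gene was represented by its probe set of highest mean over all 20 arrays, which left 19775 genes. A group-means model over the 20 arrays was fitted with limma 3.58.1 (R 4.3.3), with empirical Bayes moderation and Benjamini-Hochberg adjustment over all genes, and a gene was called at an adjusted p under 0.05, with no filter on low values. On simulated data with 19775 genes, 50 genes were changed at each size of 0.25, 0.5, 1 and 2 (log2). Of these, 21 of 50 changed by 0.25, 45 of 50 changed by 0.5 and 50 of 50 changed by 1 were recovered, with 19 false calls. Far fewer genes were changed there than the 8908 called in the data, so the recovery and the false calls do not carry over. A gene not called may still differ by a small amount.

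Named by rule were the siRNA targets, AXIN2, LEF1, CCN1, CCN2 and ANKRD1. So were the 12 largest called differences in each direction without overlap and with a higher group mean of at least 6. Up to 6 members of each list with the smallest adjusted p were added. The last were the 5 largest called interactions in each direction among genes with a mean of at least 6 in a group other than siGFP. Other list members named were chosen after their values were seen. The comparison and the gene lists were chosen with earlier results of these data known. Alternatives covered probe set choice, low-signal filters, normalization, the variance prior, the arrays fitted, the replicate letter and leaving out each array. Replicate letters did not pair the arrays.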

Additional observations from a re-analysis of the deposited data

Results flagged for a closer look

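In 68 groups of 4 arrays (34 genes), 5 arrays stood far from the other 3 of their group; chance gives about 1 in 20 groups. CCN1 was 6.90 in sibcat/siTAZ replicate A, with the others at 6.64 to 6.66. ANKRD1 was 2.80 in siAPC/siTAZ replicate A, with the others at 3.15 to 3.20. BMP4 was 11.02 in siAPC/siTAZ replicate A, with the others at 10.82 to 10.84. IFIT1 was 6.66 in siAPC/siTAZ replicate B, with the others at 6.39 to 6.42. OIP5 was 6.08 in siAPC/siTAZ replicate C, with the others at 5.91 to 5.93. For BMP4, IFIT1 and OIP5 the gap is small beside a difference between groups of more than 3.

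The difference between siAPC/siTAZ and sibcat/siTAZ cells was itself different from that between siAPC and sibcat cells for 5480 genes, by the interaction in limma. Of the 34 genes named singly, 32 were among them. Of the siRNA targets and reporters, the interaction was -0.67 for APC, 1.69 for CTNNB1, -0.45 for WWTR1, 0.53 for AXIN2, 1.43 for LEF1, 1.04 for CCN1 and -0.48 for ANKRD1. Of the genes with the largest higher differences it was 2.75 for DKK2, 3.23 for BMP4, 2.28 for CCN4, 1.65 for HAS2, 0.46 for GJA1, 3.04 for OLR1, 2.13 for ZBED2, 1.65 for PLCXD2 and 0.47 for TNFRSF19. Of the interferon genes it was -1.76 for IFIT1, -1.10 for IFI27, -1.65 for IFIT2, -1.39 for IFITM1, -0.97 for ISG15 and -0.36 for IFI6. Of the other genes with large lower differences it was -1.59 for IQGAP2, -3.23 for TIMP2, -0.97 for PTGFR, -3.38 for PRR16, -1.83 for PID1 and -2.19 for OIP5. The remaining values were 3.08 for ARL14, -2.73 for SDC2, -2.71 for SRGN and -2.36 for DEK.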

How the results depend on the processing

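The 8908 called genes became 16756 called probe sets, 8164 higher and 8592 lower, when probe sets were tested singly, since more features were then tested. With the mean of all probe sets of a gene, genes at least 2-fold apart numbered 217 (331 in the reported fit) for siAPC against sibcat and 203 (335) for the interaction. Leaving out 1 array at a time gave 8542 to 8703 called genes and 1144 to 1155 at least 2-fold apart. Replicate letters did not pair the arrays (same-letter correlations of -0.0118 to 0.115 between the groups compared), and with the replicate letter as a block 9002 genes were called and 1150 were at least 2-fold apart. Among named genes, 6 differences turned their sign. With the mean of all probe sets these were NECTIN3 at -0.076 (adjusted p = 0.268), EGFR at -0.128 (adjusted p = 0.0052), EMCN at 0.032 and TEK at 0.028. Leaving out 1 array at a time, VWF ranged from -0.132 to 0.0033 (without siAPC/siTAZ replicate D) and ITGAM from -0.005 (without sibcat/siTAZ replicate B) to 0.172; neither was called in the reported fit. AFDN and SDHD lost their call with the mean of all probe sets, and FAP lost it under 6 alternatives. The cause was not tested. Signal near the array floor limits DKK2, CCN4, AXIN2, CCN2, IL33, OLR1, APCDD1, SP5 and LGR6, among others, whose differences are compressed.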

Other observations

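Among the 1150 genes at least 2-fold apart, 14 were called in the opposite direction between siAPC and sibcat cells. Of these, 9 were lower in siAPC/siTAZ than in sibcat/siTAZ cells, among them the proteoglycan core SRGN (-2.29 with TAZ siRNA and 0.41 without) and the oxytocin receptor OXTR (-1.48 and 0.50). The other 5 were higher, among them the alarmin IL33 (2.36 with TAZ siRNA and -0.54 without). IL33 averaged 5.46 in siAPC/siTAZ cells but 3.10 in sibcat/siTAZ, 2.45 in siAPC and 2.99 in sibcat cells. All but the first lay far below the array medians, so its opposite direction is a shift near the floor. OXTR averaged 4.87 in siAPC/siTAZ cells and 6.35 in sibcat/siTAZ cells, 10.29 in siAPC cells and 9.79 in sibcat cells, and 5.6 in siGFP cells.

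By a rule chosen after values were seen, a group stood apart where its mean lay at least 1 from all other groups and these lay within 0.5 of each other. The siAPC/siTAZ cells stood above the rest for 18 genes and below for 35, and sibcat/siTAZ cells above for 5 and below for 2. The siGFP cells stood above for 32 and below for 1, so standing apart was not particular to siAPC/siTAZ cells. Most of the 18 genes lay near the floor, with a siAPC/siTAZ mean below the array medians, such as MICU3 (3.475) and DSG4 (3.99). The chromatin protein gene DEK was among the 35, at 8.99 in siAPC/siTAZ cells and 11.67 in sibcat/siTAZ cells. The circadian factor BMAL1 was among the 18, at 10.39 in siAPC/siTAZ cells and 9.33 in sibcat/siTAZ cells.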
